A study of Rattus norvegicus with 12 samples.

Results

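The comparison of cardiopulmonary bypass with nitrite (CPB+Nitrite) against bypass alone (CPB) used 8 of the 12 kidney RNA-sequencing libraries of the series, 4 per group. Members were chosen by their labels. The remaining 4 libraries came from sham rats. They are given as a reference level and also entered the fit, where they add to the estimate of the spread. All 12 were total RNA from rat kidney (Rattus norvegicus), and the treatment label was the only one that differed between the groups: sham, CPB, or CPB+Nitrite. The strain, sex and age of the animals, the nitrite dose and route, the length of bypass and the time of sampling are not given in the sources used here. Nothing in the labels says that the replicates were separate animals, so p-values measure only the spread between these libraries.

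Cardiopulmonary bypass replaces the heart and lungs with a pump and an oxygenator, and acute kidney injury is a known complication of it. Nitrite is a circulating anion that haem proteins and molybdenum enzymes can reduce to nitric oxide, which activates soluble guanylate cyclase in smooth muscle and other cells. Interferons induce a set of antiviral genes through STAT and IRF transcription factors, and injured tubules are a known source of inflammatory transcripts. The design text of the series names kidney injury after bypass and protection by nitrite as its subject.

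The 12 libraries held 16837055 to 25776044 estimated reads each. Of 30208 genes in the table, 20455 had a read and 14664 were tested. The tissue label matched the markers: all 27 proximal tubule markers were tested, and their summed level was 13204 to 16434 CPM (a gene's counts scaled to the same library total) in CPB and 11387 to 17218 in CPB+Nitrite. The 4 CPB+Nitrite libraries resembled each other less than the 4 CPB libraries did. CPB+Nitrite 1 lay close to the CPB libraries for most immune and injury genes. CPB+Nitrite 2 stood apart in markers of several kidney cell types. Values are therefore given for each library in the order 1 to 4. Replicate numbers are names only and have no order.

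No gene passed the threshold between CPB+Nitrite and CPB. In edgeR's quasi-likelihood test, adjusted by Benjamini and Hochberg's method, 0 of 14664 genes (0%) had an adjusted p under 0.05. The smallest adjusted p was 0.0556 and was shared by 214 genes. At an unadjusted p under 0.05 there were 2530 genes higher with nitrite (17.3% of those tested) and 1785 lower (12.2%). These values rest on a spread shared with sham. With only the 8 compared libraries in the edgeR fit, the smallest adjusted p was 0.143. In that fit 3165 of 14063 genes had an unadjusted p under 0.05. DESeq2 called 2235 of 15212 genes, 1347 higher (8.85%) and 888 lower (5.84%), and limma voom with sample weights called 1 gene, Trim29. The outcome of the edgeR test rested on 1 library: without CPB+Nitrite 1 it called 2816 genes, 1710 higher (11.7%) and 1106 lower (7.54%). Without CPB 1 it called 4 genes, all lower with nitrite, and without each of the other 10 libraries in turn it called 0. CPB+Nitrite 1 was singled out by its values. Calls and p-values without it, here and below, are therefore a description and no support for a difference.

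**Figure D1:**
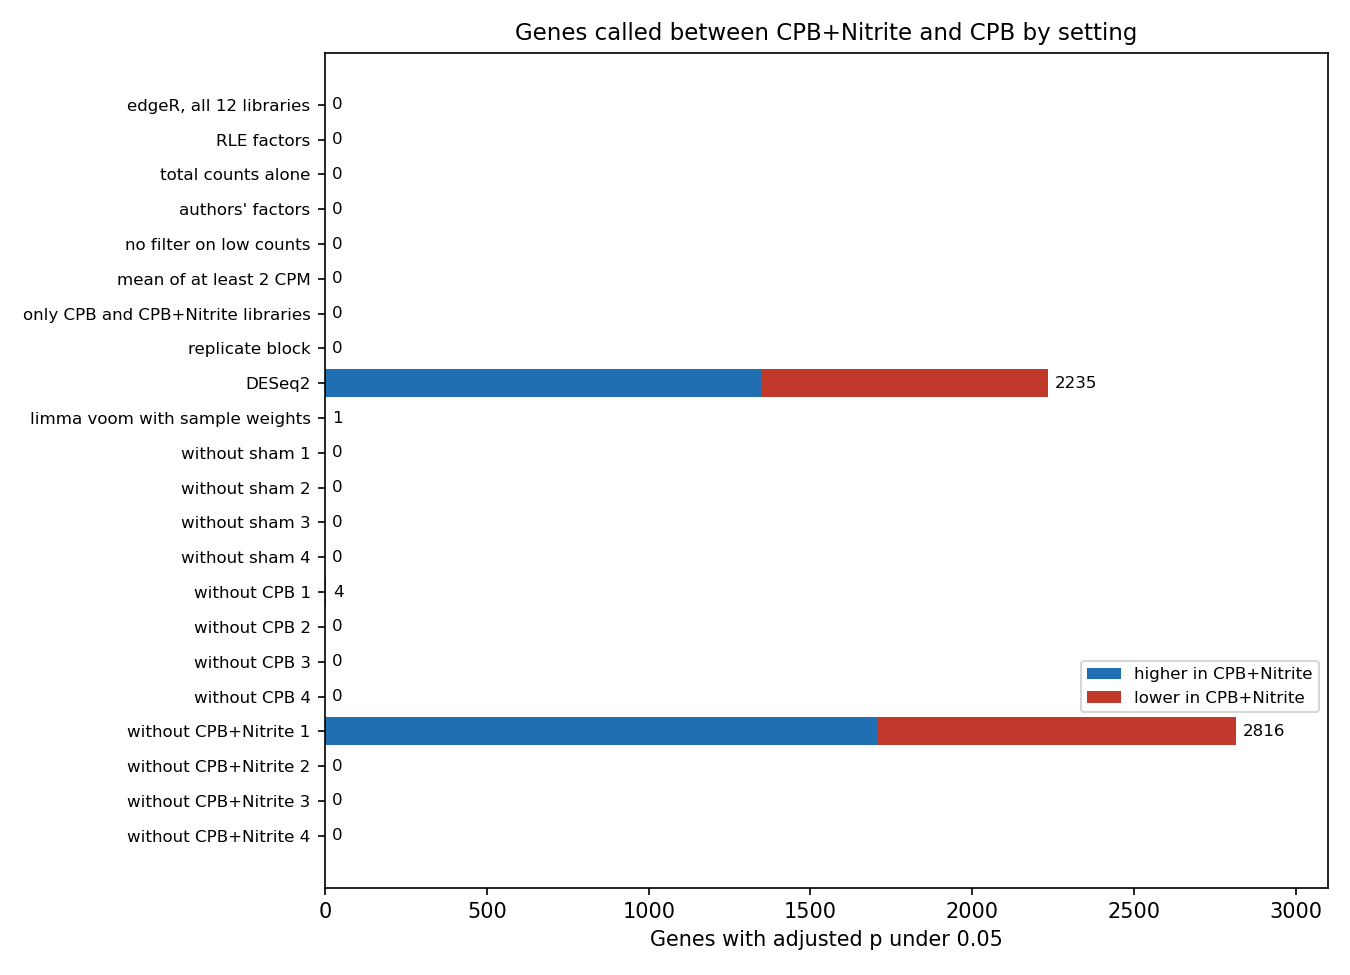
Number of genes with an adjusted p under 0.05 between CPB+Nitrite and CPB (horizontal axis, linear from 0) under each setting (vertical axis); blue marks genes higher and red genes lower in CPB+Nitrite. The bars reach 2816 genes without CPB+Nitrite 1 and 2235 with DESeq2, and every other setting gave between 0 and 4.

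As a description that does not rest on a model of the spread, genes were counted whose 4 CPB+Nitrite libraries all lay above, or all below, the 4 CPB libraries. There were 1863 such genes (12.7% of those tested), 944 higher (6.44%) and 919 lower (6.27%). The count was 3752 without CPB+Nitrite 1 and 3531 without CPB 1. With total counts as the only scaling, the median over all tested genes was 0.17 in place of 0.05, and the split was 1123 higher and 642 lower. Log2 changes below are CPB+Nitrite minus CPB (n = 4 per group), with their standard error from the edgeR fit that also holds the sham libraries. A log2 change above 0 was found for 54.1% of all tested genes and one below 0 for 45.9%. The gene lists below were chosen with earlier results of these data known. Shares of a list set beside all genes are therefore a description and no independent support.

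Of the 10 genes with a symbol and the smallest p-values, 8 had nitrite values that overlapped the sham range. In all 10 the nitrite values did not overlap the CPB range, beside 12.7% of all genes tested. The 10 were chosen by this same comparison, so these counts are a description and no support for a difference. The share of all genes whose nitrite values overlapped sham was not counted. Elovl6 (chr2:218063804-218171186, build mRatBN7.2), which elongates saturated fatty acids, was at 5.49, 4.97, 3.57 and 5.22 CPM in CPB 1 to 4 and 9.25, 19.0, 14.5 and 13.0 in CPB+Nitrite 1 to 4 (log2 change 1.53, standard error 0.23, adjusted p = 0.0556). All 4 nitrite libraries were above all 4 CPB libraries, and the sham libraries were at 11.6 to 14.9 CPM. Manba (chr2:223910432-224002983), the lysosomal beta-mannosidase, was at 112, 145, 165 and 142 CPM in CPB 1 to 4 and 71.4, 72.3, 80.1 and 83.5 in CPB+Nitrite 1 to 4 (log2 change -0.88, standard error 0.13, adjusted p = 0.0556). The nitrite libraries were all below the CPB libraries and overlapped the sham range of 68.3 to 73.6 CPM. Zfp354a (chr10:35396231-35408068), a zinc finger protein known from kidney injury and development, was at 32.9, 26.3, 24.6 and 19.0 CPM in CPB 1 to 4 and 44.8, 76.9, 99.97 and 60.5 in CPB+Nitrite 1 to 4 (log2 change 1.46, standard error 0.24, adjusted p = 0.0556), with sham at 78.3 to 109. Gldc, the decarboxylase of the glycine cleavage system, was at 24.4, 32.1, 26.5 and 26.8 CPM in CPB and 80.7, 65.6, 48.1 and 50.1 in CPB+Nitrite (log2 change 1.16, standard error 0.20, adjusted p = 0.0556). Its sham libraries, at 54.5 to 84.4 CPM, overlapped the nitrite libraries and were all above the CPB libraries.

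The same rule also named genes at low counts. Trim29 was at 0.158, 0.0540, 0.0566 and 0 CPM in CPB and 1.099, 5.86, 1.86 and 1.2003 in CPB+Nitrite (log2 change 4.96, standard error 0.74, adjusted p = 0.0556). Its level was under 0.2 CPM in every CPB library, so the size of this change depends on few reads. Pacsin1, which takes part in endocytosis, was at 0.751, 1.13, 0.736 and 0.670 CPM in CPB and 2.96, 2.38, 2.74 and 2.53 in CPB+Nitrite (log2 change 1.68, standard error 0.28, adjusted p = 0.0556). Thbs2, a matrix thrombospondin, was at 2.09, 2.32, 1.64 and 2.81 CPM in CPB and 9.72, 15.6, 4.70 and 6.80 in CPB+Nitrite (log2 change 2.06, standard error 0.35, adjusted p = 0.0556). In both genes the lowest nitrite library was above the highest CPB library. Among genes lower with nitrite, Zfp365 was at 11.02, 24.6, 27.2 and 29.7 CPM in CPB 1 to 4 and 7.44, 4.62, 2.40 and 7.60 in CPB+Nitrite 1 to 4 (log2 change -2.06, standard error 0.40, adjusted p = 0.0556), and its sham libraries were at 1.45 to 3.27.

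**Figure D2:**
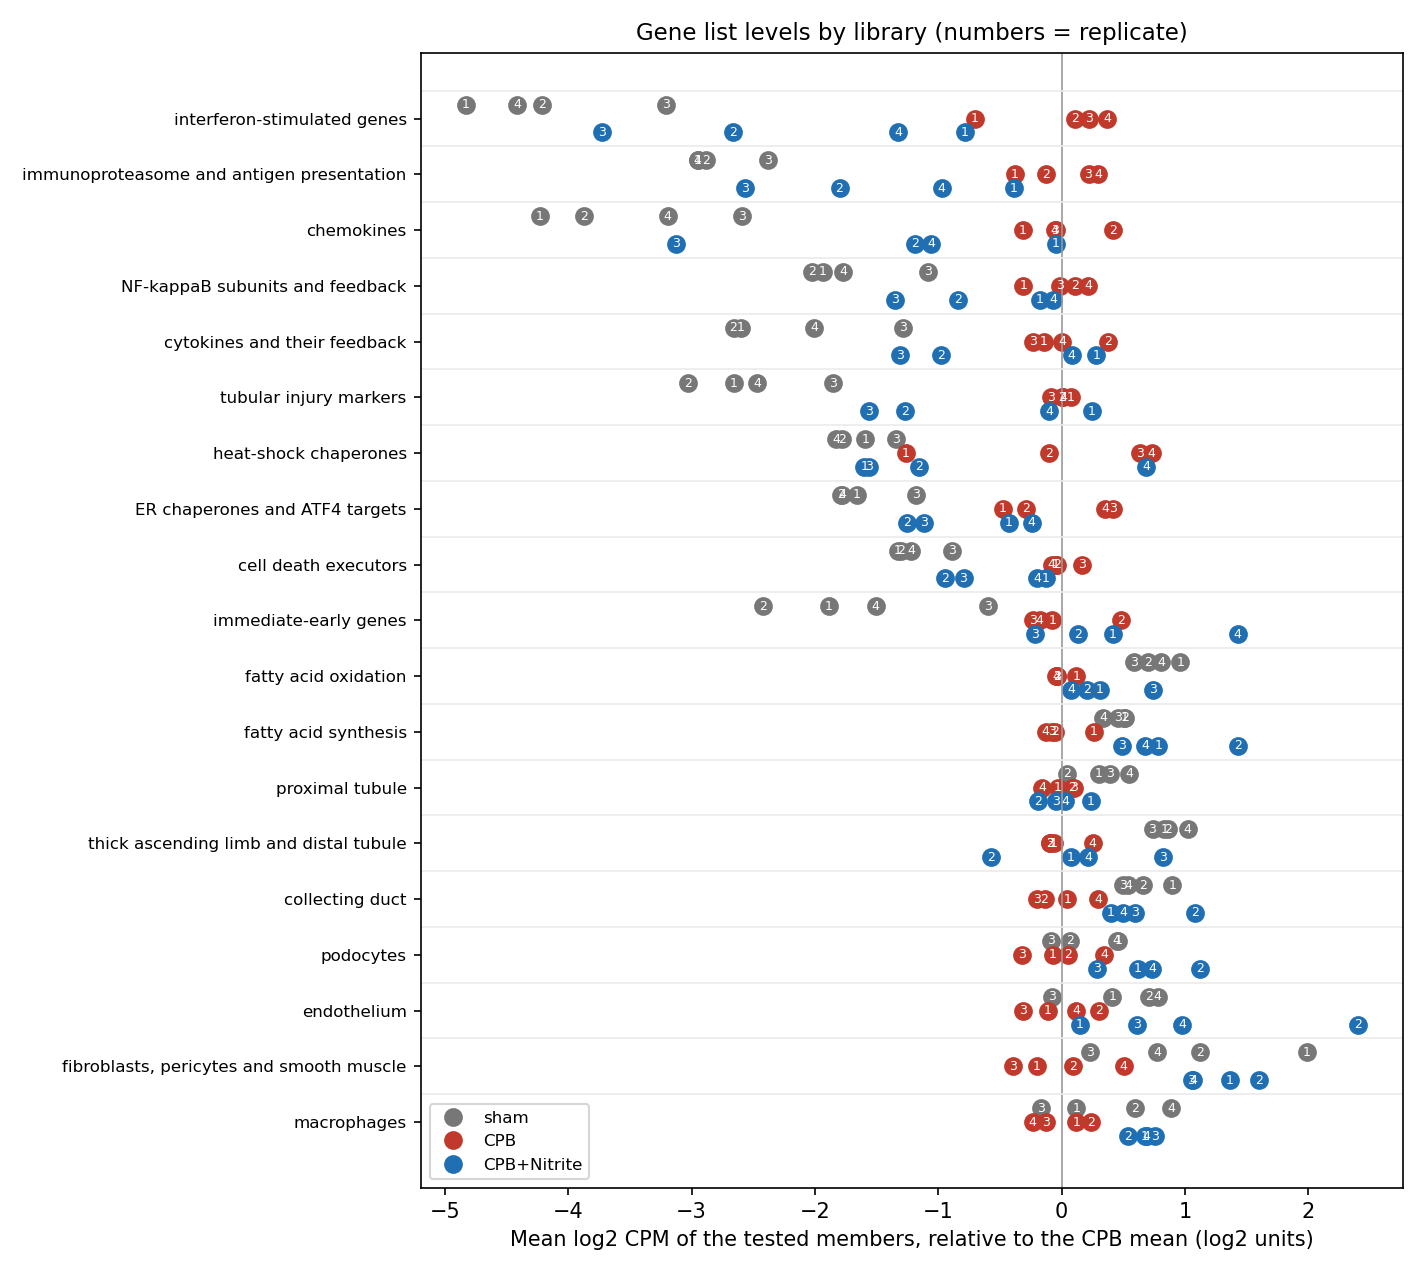
Mean log2 CPM over the tested members of each gene list (horizontal axis, log2 units relative to the mean of the 4 CPB libraries) in every library; numbers are replicates and the vertical axis names the lists. The interferon list lay at -0.78 in CPB+Nitrite 1 and -3.73 in CPB+Nitrite 3, and the endothelial list at 2.40 in CPB+Nitrite 2.

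Interferon-stimulated genes were lower with nitrite throughout the list. All 28 tested members had a log2 change below 0, with a median of -1.77 beside 0.05 for all genes tested. In 15 of the 28 all nitrite libraries were below all CPB libraries, beside 6.27% of all genes, and 26 had an unadjusted p under 0.05, beside 12.2%. None passed the adjusted threshold with all libraries. Without CPB+Nitrite 1, 20 of the 28 passed as lower, beside 7.54% of all genes, and DESeq2 called 17, beside 5.84%. The list level was -0.70, 0.11, 0.22 and 0.37 log2 units in CPB 1 to 4 relative to their mean, and -0.78, -2.66, -3.73 and -1.33 in CPB+Nitrite 1 to 4. CPB+Nitrite 1 was just below CPB 1, CPB+Nitrite 4 and 2 were lower, and CPB+Nitrite 3 lay within the sham range of -4.83 to -3.20.

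Single effectors followed this order of libraries. Cmpk2, a mitochondrial nucleotide kinase, and its neighbour Rsad2, the antiviral enzyme viperin, lie at chr6:43073796-43085183 and chr6:43047658-43059699. Cmpk2 was at 79.6, 245, 199 and 286 CPM in CPB 1 to 4 and 55.0, 16.7, 4.65 and 42.01 in CPB+Nitrite 1 to 4 (log2 change -2.77, standard error 0.61, adjusted p = 0.0556). Rsad2 was at 129, 432, 294 and 411 CPM in CPB 1 to 4 and 116, 28.3, 3.72 and 99.5 in CPB+Nitrite 1 to 4 (log2 change -2.35, standard error 0.78, adjusted p = 0.0836). In both genes CPB+Nitrite 1 was the highest nitrite library and CPB 1 the lowest CPB library, and the groups did not overlap. Ifit2 (chr1:232102570-232108635), which binds viral RNA, was at 349, 804, 583 and 759 CPM in CPB 1 to 4 and 268, 54.8, 18.7 and 179 in CPB+Nitrite 1 to 4 (log2 change -2.26, standard error 0.64, adjusted p = 0.063). Its level in CPB+Nitrite 3 was inside the sham range of 6.85 to 19.2 CPM, and the other nitrite libraries were above it.

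Further members were lower in every nitrite library than in any CPB library. Mx2, an interferon-induced GTPase, was at 244 to 615 CPM in CPB and 197, 72.7, 22.0 and 159 in CPB+Nitrite 1 to 4 (log2 change -2.05, standard error 0.66, adjusted p = 0.0777). Dhx58, a regulator of RNA sensing, was at 66.3 to 144 CPM in CPB and 58.6, 13.7, 10.7 and 46.0 in CPB+Nitrite (log2 change -1.77, standard error 0.49, adjusted p = 0.0628). Xaf1, a pro-apoptotic factor induced by interferon, was at 71.5 to 162 CPM in CPB and 63.9, 21.9, 10.3 and 48.1 in CPB+Nitrite (log2 change -1.79, standard error 0.49, adjusted p = 0.0614). Zbp1 senses Z-form nucleic acids and can trigger necroptosis. It was at 7.27 to 16.5 CPM in CPB and 7.01, 1.76, 1.08 and 2.45 in CPB+Nitrite (log2 change -2.07, standard error 0.53, adjusted p = 0.0584). Of genes outside the list, Samd9l, an antiviral growth regulator, had a log2 change of -2.11 (adjusted p = 0.0611) and Samhd1, a dNTP-degrading restriction factor, one of -2.11 (adjusted p = 0.0584). In each, the nitrite libraries were below the CPB libraries.

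A group of neighbouring genes on chromosome 18 with provisional symbols was among the largest negative changes. RGD1305184 (chr18:53851449-53852696) was at 42.1, 70.1, 76.5 and 115 CPM in CPB 1 to 4 and 27.1, 0.953, 0.147 and 1.02 in CPB+Nitrite 1 to 4 (log2 change -3.37, standard error 1.11, adjusted p = 0.0819). CPB+Nitrite 1 was near the CPB libraries, and CPB+Nitrite 2 to 4 were within or close to the sham range of 0 to 0.628 CPM. MGC105567 (chr18:53870795-53892024) and LOC100910979 (chr18:53748631-53772834) had log2 changes of -2.57 (adjusted p = 0.0747) and -2.40 (adjusted p = 0.0645). Their roles are not stated here, and reads shared between similar copies cannot be resolved from the table.

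The promoters of several of these genes hold the interferon-stimulated response element (ISRE), the site through which STAT and IRF factors act. Its core, a pair of GAAA parts with 2 free bases between them, was searched on both strands in RefSeq promoter windows (build GRCr8, 250 bases before to 50 after the gene start, 300 in all). It was found in 1312 of 33469 windows (3.92%). List members were counted by gene, unlike this share of windows. Of the interferon-stimulated members, 20 had a window and 13 of them (65.0%) held the core. Of 9 antigen-presentation genes with a window 6 held it, and of 11 chemokines 1, Cxcl10. A match describes the letters of the window and shows no binding. These 4 windows are shown because their genes had a log2 change below 0 and represent the antiviral, pro-apoptotic, chemokine and peptide-transport groups. The compared groups overlapped in Cxcl10. Each window is 5′ to 3′ on the strand of the gene, with the match in capitals. They lie at chr6:48788071-48788370 on the minus strand (Rsad2), chr10:57415685-57415984 on the plus strand (Xaf1), chr14:15988816-15989115 on the plus strand (Cxcl10) and chr20:4652247-4652546 on the minus strand (Tap2). The match begins 147, 11, 243 and 41 bases before the start in that order, and that of Rsad2 reads on the opposite strand.
Rsad2: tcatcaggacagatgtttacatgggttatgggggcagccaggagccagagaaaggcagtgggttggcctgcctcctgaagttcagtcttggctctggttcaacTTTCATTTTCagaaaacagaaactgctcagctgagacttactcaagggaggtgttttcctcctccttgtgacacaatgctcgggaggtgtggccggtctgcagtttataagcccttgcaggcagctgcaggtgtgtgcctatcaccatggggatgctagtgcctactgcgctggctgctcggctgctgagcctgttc
Xaf1: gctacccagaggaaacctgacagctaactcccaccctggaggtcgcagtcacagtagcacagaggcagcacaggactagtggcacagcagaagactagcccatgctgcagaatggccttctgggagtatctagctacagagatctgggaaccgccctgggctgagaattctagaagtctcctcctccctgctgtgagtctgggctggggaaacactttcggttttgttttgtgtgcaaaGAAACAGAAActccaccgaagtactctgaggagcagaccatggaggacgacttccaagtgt
Cxcl10: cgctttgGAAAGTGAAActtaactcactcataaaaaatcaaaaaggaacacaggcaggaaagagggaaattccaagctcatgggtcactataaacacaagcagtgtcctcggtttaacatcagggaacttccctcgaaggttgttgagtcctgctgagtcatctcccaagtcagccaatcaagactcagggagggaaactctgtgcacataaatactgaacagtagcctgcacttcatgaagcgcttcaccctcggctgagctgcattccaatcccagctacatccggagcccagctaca
Tap2: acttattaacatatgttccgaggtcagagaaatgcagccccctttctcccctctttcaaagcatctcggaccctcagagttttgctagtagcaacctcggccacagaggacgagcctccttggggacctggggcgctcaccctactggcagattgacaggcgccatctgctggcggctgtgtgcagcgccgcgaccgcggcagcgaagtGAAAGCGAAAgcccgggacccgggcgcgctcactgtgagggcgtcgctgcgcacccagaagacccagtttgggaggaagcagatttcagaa

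Antigen presentation genes showed the same order of libraries. All 11 tested members of the immunoproteasome and antigen-presentation list had a log2 change below 0 (median -1.14), and in 5 the groups did not overlap, beside 6.27% of all genes. Without CPB+Nitrite 1, 8 of the 11 passed as lower, beside 7.54%, and DESeq2 also called 8, beside 5.84%. Tap2 (chr20:4636357-4650407), a subunit of the transporter that loads peptides, was at 248, 393, 500.2 and 620.2 CPM in CPB 1 to 4 and 243, 73.0, 55.2 and 183 in CPB+Nitrite 1 to 4 (log2 change -1.67, standard error 0.42, adjusted p = 0.0584). CPB+Nitrite 1 and CPB 1 nearly met, and CPB+Nitrite 2 and 3 were near the sham libraries at 34.4 to 52.6. Its neighbour Psmb8 (chr20:4652159-4655283), a catalytic subunit of the immunoproteasome, was at 96.0 to 201 CPM in CPB and 93.1, 23.0, 15.7 and 57.6 in CPB+Nitrite (log2 change -1.61, standard error 0.45, adjusted p = 0.063). Tapbp (tapasin) had a log2 change of -1.14 (adjusted p = 0.0592). The transactivators of MHC class I and class II genes were also lower: Nlrc5 was at 80.8 to 163 CPM in CPB and 76.2, 11.9, 9.85 and 44.1 in CPB+Nitrite (log2 change -1.87, standard error 0.54, adjusted p = 0.0661). Ciita was at 23.0 to 56.3 CPM in CPB and 17.7, 1.69, 5.19 and 7.202 in CPB+Nitrite (log2 change -2.35, standard error 0.52, adjusted p = 0.0556), with CPB+Nitrite 2 below the sham range of 4.82 to 6.38.

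**Figure D3:**
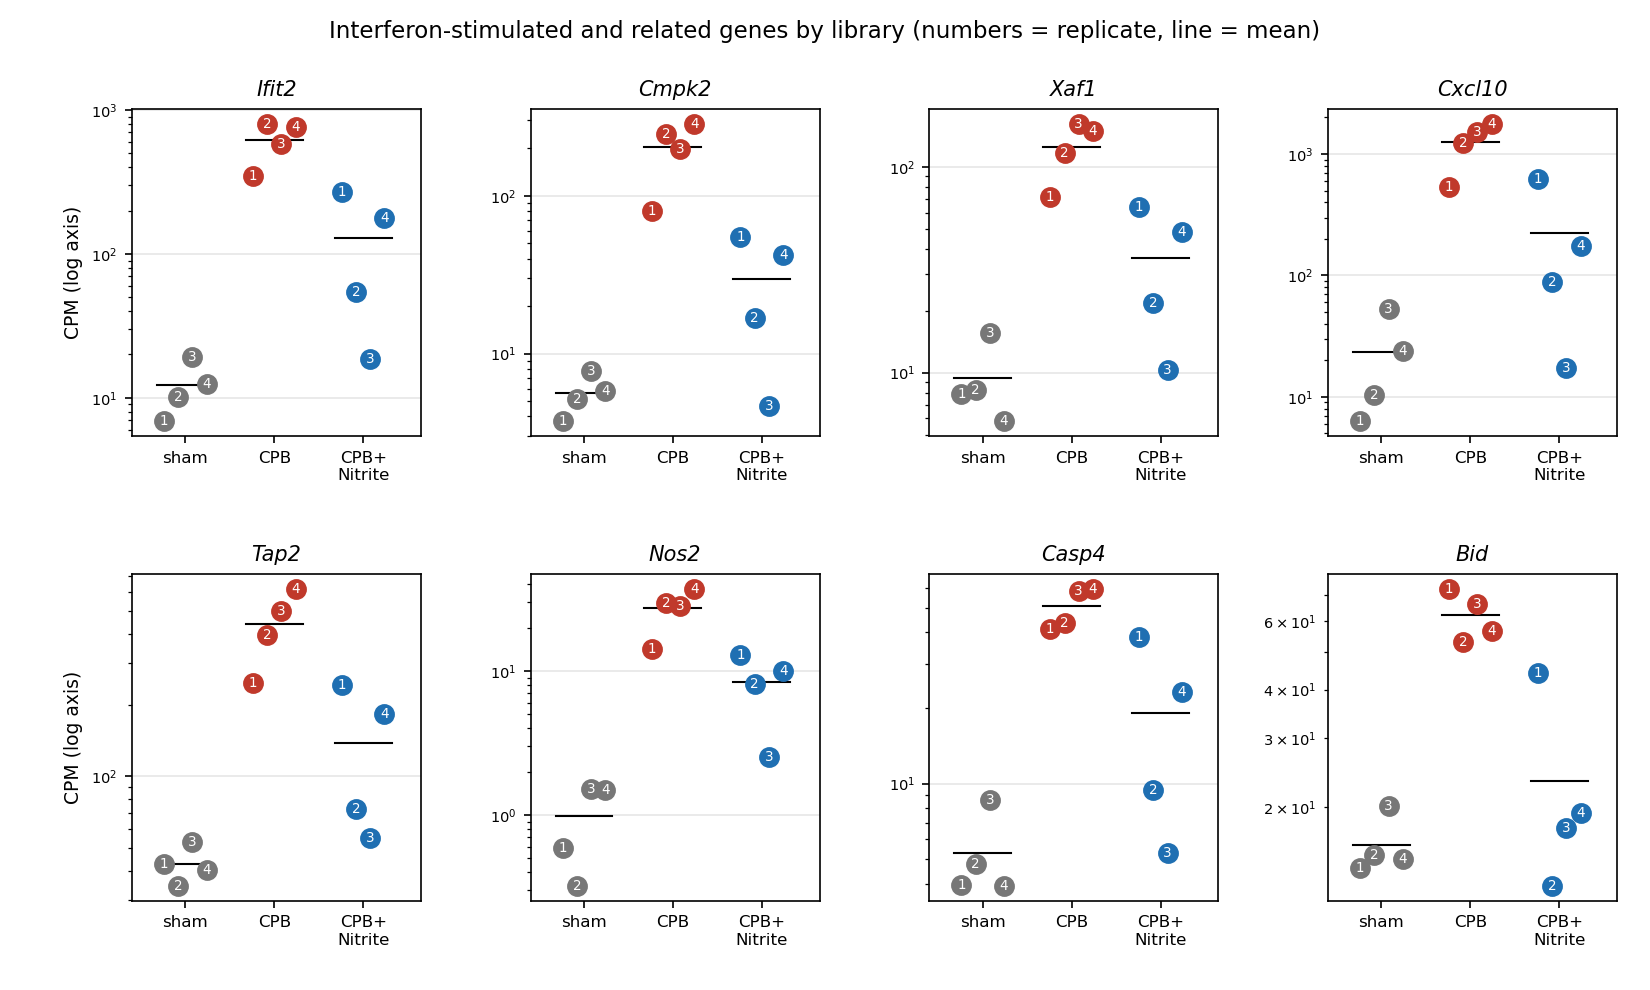
CPM in each library (vertical axes, log scale) for 8 interferon-stimulated and related genes in sham, CPB and CPB+Nitrite; numbers are replicates and lines are group means. CPB+Nitrite 1 is the highest nitrite library in every panel, and CPB+Nitrite 3 is at 18.7 CPM for Ifit2 and 17.2 for Cxcl10.

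Chemokines were below the CPB libraries as a list in CPB+Nitrite 2 to 4. The list level was -0.05, -1.19, -3.12 and -1.06 in CPB+Nitrite 1 to 4 beside -0.31 to 0.42 in CPB, so CPB+Nitrite 1 was within the CPB range. Of 15 tested, 14 had a log2 change below 0 (median -0.73). With 1 library left out the median ranged from -0.98 without CPB+Nitrite 1 to -0.44 without CPB+Nitrite 3, and was -0.45 without CPB 2. The groups overlapped in all but Cxcl16, which was lower (beside 6.27% of all genes), and Cxcl12, which was higher (beside 6.44%). Without CPB+Nitrite 1, 7 of the 15 passed as lower, beside 7.54% of all genes, and 1 as higher, beside 11.7%. Cxcl10, a T cell attractant that binds CXCR3, was at 533, 1225, 1516 and 1775 CPM in CPB 1 to 4 and 622, 87.7, 17.2 and 173 in CPB+Nitrite 1 to 4 (log2 change -2.49, standard error 0.90, adjusted p = 0.0998). CPB+Nitrite 1 lay above CPB 1, and without CPB+Nitrite 1 the log2 change was -3.77 (adjusted p = 0.0179). Cxcl11, another CXCR3 ligand, was at 779, 1335, 2675 and 1524 CPM in CPB 1 to 4 and 791, 63.2, 28.1 and 204 in CPB+Nitrite 1 to 4 (log2 change -2.54, standard error 0.86, adjusted p = 0.0874). It had the same overlap, and without CPB+Nitrite 1 its log2 change was -4.003 (adjusted p = 0.0112). Cxcl16 was at 299 to 346 CPM in CPB and 283, 133, 96.3 and 257 in CPB+Nitrite (log2 change -0.73, standard error 0.30, adjusted p = 0.132). Cxcl12, which retains CXCR4-positive cells, was at 18.8 to 28.1 CPM in CPB and 30.4, 147, 39.1 and 30.3 in CPB+Nitrite (log2 change 1.33, standard error 0.46, adjusted p = 0.0927), and its log2 change was 0.43 without CPB+Nitrite 2.

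The main injury-associated cytokines and neutrophil or monocyte attractants overlapped between the groups. Il6 was at 15.3, 35.7, 20.3 and 23.7 CPM in CPB 1 to 4 and 35.9, 12.1, 4.51 and 16.3 in CPB+Nitrite 1 to 4 (log2 change -0.46, standard error 0.71, adjusted p = 0.678). Ccl2, which attracts monocytes, was at 35.5, 63.0, 37.6 and 53.7 CPM in CPB 1 to 4 and 46.4, 60.2, 1.27 and 28.1 in CPB+Nitrite 1 to 4 (log2 change -0.48, standard error 0.74, adjusted p = 0.677). Cxcl1, which attracts neutrophils, was at 39.7, 85.4, 59.8 and 68.5 CPM in CPB 1 to 4 and 65.6, 107, 5.14 and 35.2 in CPB+Nitrite 1 to 4 (log2 change -0.25, standard error 0.74, adjusted p = 0.841). In all 3 genes CPB+Nitrite 3 was the lowest of the 8 libraries and at least 1 other nitrite library lay within the CPB range. The log2 change of Cxcl1 had the opposite sign without CPB+Nitrite 3 (0.13). Il1b was at 23.6, 8.28, 4.75 and 13.4 CPM in CPB+Nitrite beside 11.8 to 13.1 in bypass alone (log2 change 0.01, adjusted p = 0.988), so nitrite libraries lay on both sides of a narrow CPB range. Tnf was at 1.25 to 3.99 CPM in CPB and 3.34, 10.7, 0.294 and 4.22 in CPB+Nitrite (adjusted p = 0.31). Of 13 cytokines and feedback genes tested, 9 had a log2 change below 0 and the groups overlapped in all of them.

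NF-kappaB genes were below the CPB libraries as a list in CPB+Nitrite 2 and 3 only, with list levels of -0.18, -0.84, -1.35 and -0.07 in CPB+Nitrite 1 to 4 beside -0.31 to 0.22 in CPB. Of 15 subunits and feedback genes, 13 had a log2 change below 0 (median -0.56). At an unadjusted p under 0.05 there were 8 lower, beside 12.2% of all genes, and in 3 the groups did not overlap, beside 6.27%. Bcl3, an atypical inhibitor that binds NF-kappaB subunits in the nucleus, was at 79.7, 99.1, 112 and 98.2 CPM in CPB 1 to 4 and 64.8, 13.6, 15.4 and 52.9 in CPB+Nitrite 1 to 4 (log2 change -1.41, standard error 0.48, adjusted p = 0.0858). CPB+Nitrite 2 and 3 were within the sham range of 6.96 to 18.2 CPM, and CPB+Nitrite 1 and 4 lay between it and the CPB libraries. Tnip1, which restrains NF-kappaB signalling, and the inhibitor Nfkbib had smaller log2 changes of -0.56 (adjusted p = 0.0711) and -0.41 (adjusted p = 0.123).

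Leukocyte adhesion molecules differed among themselves. Icam1, induced on activated endothelium and tubules, was at 128, 157, 263 and 289.7 CPM in CPB 1 to 4 and 171, 156, 38.4 and 173 in CPB+Nitrite 1 to 4 (log2 change -0.64, standard error 0.43, adjusted p = 0.324), and only CPB+Nitrite 3 was outside the CPB range. Icam2, Pecam1 and Jam2, which are carried by resting endothelium, were higher in every nitrite library than in any CPB library. Icam2 was at 1.36 to 1.98 CPM in CPB and 2.62, 14.7, 4.80 and 3.07 in CPB+Nitrite (log2 change 2.02, standard error 0.49, adjusted p = 0.0576). Pecam1 was at 23.5 to 43.4 CPM in CPB and 48.9, 262, 90.7 and 75.4 in CPB+Nitrite (log2 change 1.79, standard error 0.44, adjusted p = 0.0576). Jam2 was at 7.87 to 10.9 CPM in CPB and 13.9, 65.6, 20.4 and 19.7 in CPB+Nitrite (log2 change 1.68, standard error 0.47, adjusted p = 0.063). CPB+Nitrite 2 was the highest library for these 3 genes; without it their log2 changes were 1.16, 1.06 and 0.95.

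As a list, tubular injury markers set CPB+Nitrite 2 and 3 apart from CPB+Nitrite 1 and 4, but single markers such as Fgb did not. Havcr1 (chr10:31119088-31151698), the gene of a membrane receptor of injured proximal tubule cells (KIM-1), was at 1114, 739, 654 and 585 CPM in CPB 1 to 4 and 721, 35.5, 22.6 and 275 in CPB+Nitrite 1 to 4 (log2 change -1.55, standard error 0.90, adjusted p = 0.255). CPB+Nitrite 1 was within the CPB range, CPB+Nitrite 4 was below it, and CPB+Nitrite 2 and 3 were near the highest sham library (4.18 to 26.5 CPM in sham). Fgb (chr2:168394916-168405979), a fibrinogen chain made by injured tubules, was at 558, 542, 1253 and 839 CPM in CPB 1 to 4 and 1121, 18.0, 29.6 and 65.0 in CPB+Nitrite 1 to 4 (log2 change -1.37, standard error 1.08, adjusted p = 0.397). Only CPB+Nitrite 1 was at a CPB level, and without it the log2 change was -4.41 (adjusted p = 0.00811). That of Havcr1 was then -2.80 (adjusted p = 0.046). Both p-values rest on leaving out the library that differed, and Fgb was itself added after its values were seen. Lcn2, which binds bacterial siderophores and is a urinary injury marker, was at 16.1, 23.7, 35.3 and 29.1 CPM in CPB 1 to 4 and 20.6, 6.998, 6.32 and 24.5 in CPB+Nitrite 1 to 4 (log2 change -0.84, standard error 0.79, adjusted p = 0.48).

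Over the 26 injury markers tested, 14 had a log2 change below 0 and 12 above 0 (median -0.21, ranging from -0.29 without CPB+Nitrite 4 to -0.089 without CPB+Nitrite 2 when 1 library was left out). The list level was 0.24, -1.27, -1.56 and -0.10 in CPB+Nitrite 1 to 4 beside -0.08 to 0.07 in CPB and -3.03 to -1.85 in sham. The groups did not overlap for 1 of the 26, which was higher with nitrite, beside 6.44% of all genes. This was Timp2, a matrix protease inhibitor used as a urinary marker, at 15.9 to 20.1 CPM in CPB and 36.1, 67.1, 30.3 and 31.2 in CPB+Nitrite (log2 change 1.19, standard error 0.29, adjusted p = 0.0576).

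Hmox1, which degrades haem, divided the libraries in the same way. It was at 548, 674, 410.3 and 531 CPM in CPB 1 to 4 and 729, 41.0, 111 and 594 in CPB+Nitrite 1 to 4 (log2 change -0.55, standard error 0.64, adjusted p = 0.571), with CPB+Nitrite 1 and 4 in or above the CPB range and CPB+Nitrite 2 and 3 between CPB and sham (5.31 to 11.2 CPM). Of 16 haem, iron and antioxidant genes 10 had a log2 change below 0, and the groups overlapped in all. The erythrocyte markers, whose part in these values was not tested, were at list levels of -1.22, 1.94, -1.25 and -1.21 in CPB+Nitrite 1 to 4 beside -0.45 to 0.83 in CPB. Hbb, a haemoglobin chain with near-identical copies that share reads, was at 747, 625, 443 and 1591 CPM in CPB 1 to 4 and 149.6, 3542, 166 and 132 in CPB+Nitrite 1 to 4 CPM; its log2 change was 0.23, or -2.51 without CPB+Nitrite 2.

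**Figure D4:**
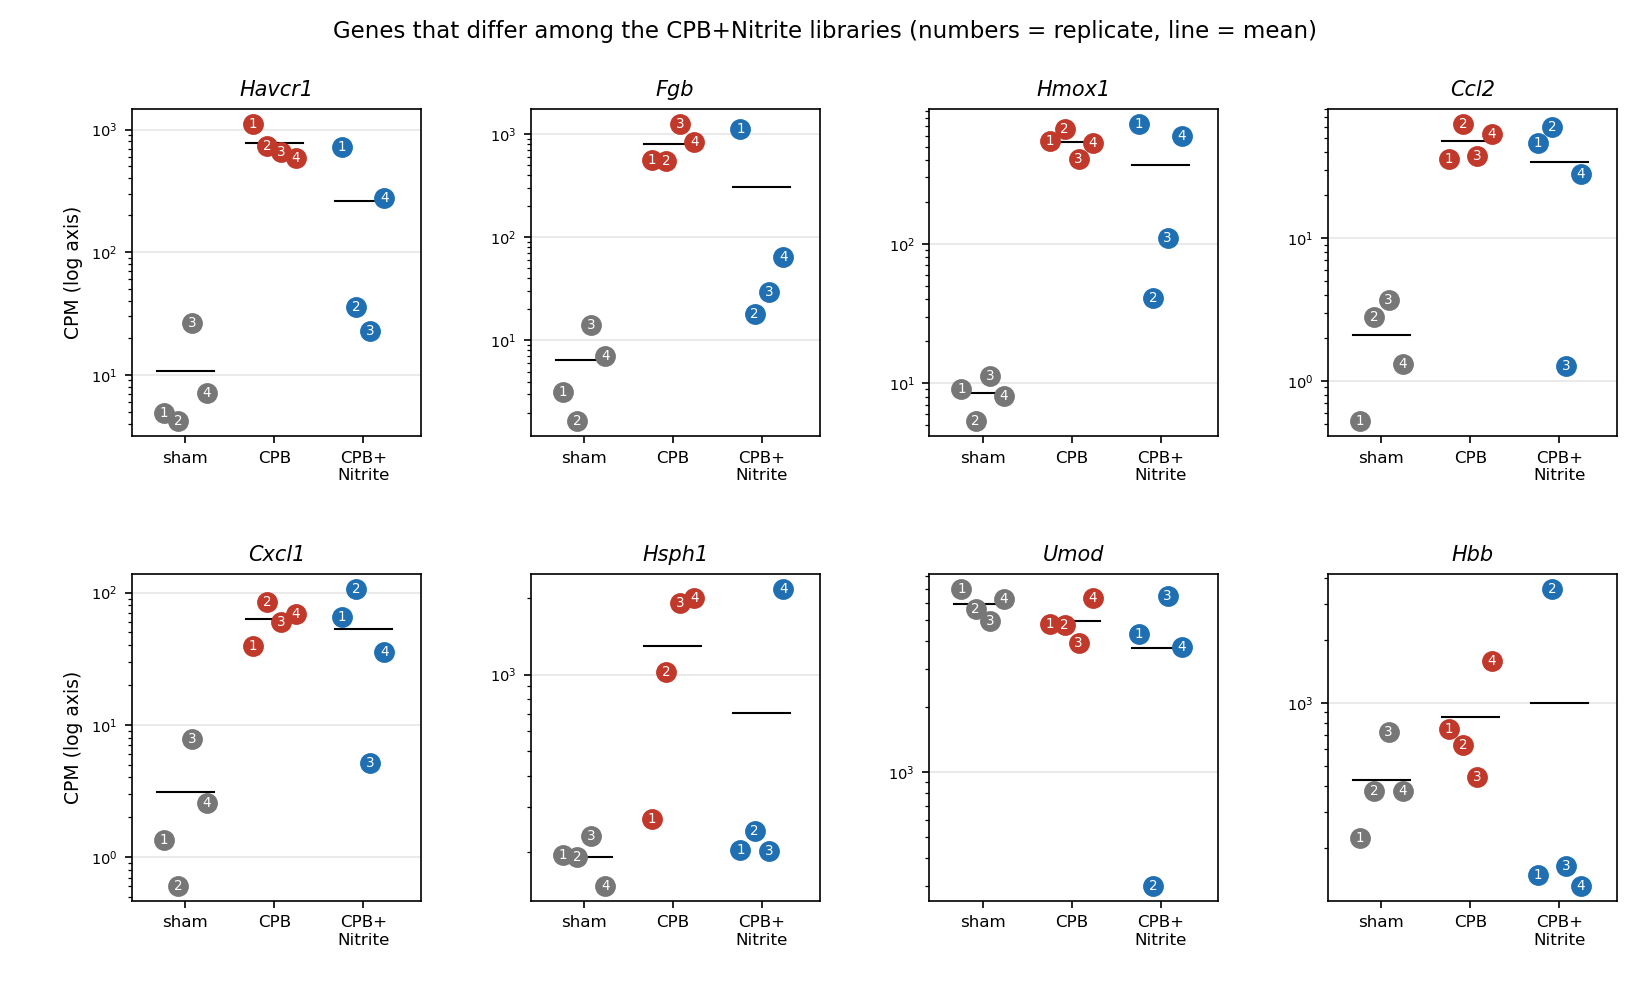
CPM in each library (vertical axes, log scale) for 8 genes on which the CPB+Nitrite libraries differed among themselves; numbers are replicates and lines are group means. Fgb is at 1121 CPM in CPB+Nitrite 1, Hsph1 at 2179.7 in CPB+Nitrite 4, Ccl2 at 1.27 in CPB+Nitrite 3 and Umod at 299 in CPB+Nitrite 2.

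Heat-shock chaperones varied as much within each group as between the groups. The list level was -1.26, -0.10, 0.63 and 0.73 in CPB 1 to 4 and -1.60, -1.16, -1.56 and 0.68 in CPB+Nitrite 1 to 4. Hsph1, a nucleotide exchange factor for heat-shock protein 70, was at 269, 1026, 1909.7 and 1994 CPM in CPB 1 to 4 and 203, 241, 201 and 2179.7 in CPB+Nitrite 1 to 4 (log2 change -0.88, standard error 0.77, adjusted p = 0.446). CPB 1 and CPB+Nitrite 1 to 3 were near or a little above the sham level of 147 to 232 CPM, and CPB+Nitrite 4 was above all CPB libraries. Hspa1b, the inducible heat-shock protein 70, was at 251, 5777, 16820.3 and 29459 CPM in CPB 1 to 4 and 189.8, 1915, 309.5 and 16336 in CPB+Nitrite 1 to 4 (log2 change -1.48, standard error 1.27, adjusted p = 0.438). It has a near-identical copy, Hspa1a, and the split of reads between the copies is uncertain. Of 19 tested chaperones 17 had a log2 change below 0, with a median of -0.60, or -1.35 without CPB+Nitrite 4. The groups overlapped in all of them. The heat-shock element was searched on both strands as GAA, TTC and GAA with 2 free bases between neighbours. It was found for 6 of 15 chaperone genes with a promoter window (40.0%) and in 267 of all 33469 windows (0.798%). The former share is counted by gene and the latter by window.

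Endoplasmic reticulum chaperones and ATF4 targets were below the CPB libraries as a list in CPB+Nitrite 2 and 3. The list level was -0.43, -1.25, -1.11 and -0.24 in CPB+Nitrite 1 to 4 beside -0.48 to 0.41 in CPB, so CPB+Nitrite 1 and 4 were within the CPB range. Of 23 tested, 20 had a log2 change below 0 (median -0.65), 14 of them at an unadjusted p under 0.05 beside 12.2% of all genes, and DESeq2 called 9 as lower, beside 5.84%. Asns, the asparagine synthetase induced by ATF4, was at 54.8, 52.3, 89.3 and 82.9 CPM in CPB 1 to 4 and 45.4, 11.2, 27.6 and 33.3 in CPB+Nitrite 1 to 4 (log2 change -1.25, standard error 0.35, adjusted p = 0.0638). The groups did not overlap, and CPB+Nitrite 2 was just below the sham range of 11.6 to 20.7 CPM. Creld2 and Pdia6, which act in protein folding in the endoplasmic reticulum, had log2 changes of -1.02 (adjusted p = 0.0775) and -0.51 (adjusted p = 0.0998) without overlap. Atf3, a stress-induced transcription factor, was at 159, 221, 401 and 239 CPM in CPB 1 to 4 and 251, 138, 62.5 and 662 in CPB+Nitrite 1 to 4 (adjusted p = 0.938). CPB+Nitrite 4 was the highest library of all for Atf3.

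The list of cell death executors also held inhibitors of cell death, so its median mixes both kinds. Of its 22 genes 15 had a log2 change below 0 (median -0.51). In 4, all of them named here, every nitrite library was below every CPB library, beside 6.27% of all genes. Bid, which links death receptors to mitochondria, was at 72.6, 52.8, 66.3 and 56.5 CPM in CPB 1 to 4 and 44.0, 12.6, 17.7 and 19.3 in CPB+Nitrite 1 to 4 (log2 change -1.41, standard error 0.32, adjusted p = 0.0556). CPB+Nitrite 2 to 4 were within or below the sham range of 14.0 to 20.1 CPM. Casp4, the caspase of the non-canonical inflammasome, was at 41.2, 43.6, 58.5 and 59.7 CPM in CPB and 38.3, 9.45, 5.29 and 23.1 in CPB+Nitrite (log2 change -1.41, standard error 0.48, adjusted p = 0.0891). Bak1, a pore former of the mitochondrial membrane, and the initiator Casp8 had log2 changes of -0.86 (adjusted p = 0.0794) and -0.61 (adjusted p = 0.0747). Targets of p53 did not move one way: 10 of 16 had a log2 change above 0. Mdm2, the ubiquitin ligase of p53, and Ccng1 were lower without overlap, at log2 changes of -1.02 (adjusted p = 0.0893) and -0.58 (adjusted p = 0.0729). Phlda3, which inhibits AKT, was higher (1.178, adjusted p = 0.102).

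The 3 nitric oxide synthases differed in direction. Nos2, the inducible enzyme, was at 14.2, 29.9, 28.2 and 37.4 CPM in CPB 1 to 4 and 12.8, 8.10, 2.55 and 10.002 in CPB+Nitrite 1 to 4 (log2 change -1.71, standard error 0.49, adjusted p = 0.0655). Its nitrite libraries were all below the CPB libraries and above the sham libraries, at 0.322 to 1.51 CPM. Nos3 (chr4:10793834-10814166), the endothelial enzyme, was at 11.7, 14.0, 7.42 and 11.3 CPM in CPB 1 to 4 and 21.2, 41.1, 23.4 and 41.3 in CPB+Nitrite 1 to 4 (log2 change 1.52, standard error 0.27, adjusted p = 0.0556). Its nitrite libraries were above all CPB libraries and above all sham libraries, at 8.57 to 13.1 CPM. Nos1, the neuronal enzyme present in the macula densa, was at 0.395, 0.756, 0.793 and 1.34 CPM in CPB 1 to 4 and 1.01, 7.22, 1.96 and 4.31 in CPB+Nitrite 1 to 4 (log2 change 2.17, standard error 0.57, adjusted p = 0.0611), with CPB+Nitrite 1 inside the CPB range. Endothelial markers were above the CPB range in CPB+Nitrite 2 to 4 (list level 0.14, 2.40, 0.61 and 0.98 beside -0.31 to 0.30 in CPB), and their part in the Nos3 values was not tested.

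Genes acting downstream of nitric oxide were higher or overlapped. Gucy1a1 and Gucy1b1, the subunits of soluble guanylate cyclase, were at low levels. Gucy1a1 was at 0.711, 0.432, 0.340 and 0.335 CPM in CPB and 1.31, 4.03, 0.931 and 1.42 in CPB+Nitrite (log2 change 2.05, standard error 0.53, adjusted p = 0.0608). Gucy1b1 was at 0.474, 1.08, 0.340 and 0.536 CPM in CPB and 1.14, 2.64, 1.176 and 1.16 in CPB+Nitrite (log2 change 1.33, standard error 0.52, adjusted p = 0.117). In both, the groups did not overlap and CPB+Nitrite 2 was highest. Npr1, a natriuretic peptide receptor that also makes cyclic GMP, was at 9.17 to 10.9 CPM in CPB and 13.6, 65.7, 16.4 and 18.0 in CPB+Nitrite (log2 change 1.51, standard error 0.44, adjusted p = 0.0673), or a log2 change of 0.68 without CPB+Nitrite 2. The list of nitric oxide synthesis and cyclic GMP also holds the synthases and genes of arginine and cofactor supply. Of its 24 genes 16 had a log2 change above 0 (median 0.44, or 0.15 without CPB+Nitrite 2). In 6, Nos3 among them, the nitrite libraries were all higher, beside 6.44% of all genes. In 1, Nos2, they were all lower, beside 6.27%.

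The list of molybdenum enzymes and globins, which can handle nitrite, also held carbonic anhydrases. All 8 tested members had a log2 change above 0 (median 0.52). That of the globin Hbb was 0.23, or -2.51 without CPB+Nitrite 2. Suox, sulfite oxidase, was at 29.2, 29.3, 27.0 and 30.5 CPM in CPB 1 to 4 and 44.7, 55.2, 70.5 and 35.5 in CPB+Nitrite 1 to 4 (log2 change 0.83, standard error 0.18, adjusted p = 0.0556). The groups did not overlap, and all nitrite libraries were below the sham libraries at 70.7 to 83.5 CPM. Mtarc1, an amidoxime-reducing enzyme, was at 43.7 to 46.8 CPM in CPB and 54.5, 87.5, 58.8 and 59.8 in CPB+Nitrite (log2 change 0.53, standard error 0.16, adjusted p = 0.0691). Xdh, xanthine oxidoreductase, was at 83.2 to 93.0 CPM in CPB and 182, 60.7, 71.5 and 74.3 in the nitrite group (log2 change 0.17, adjusted p = 0.744). Its mean was raised by CPB+Nitrite 1 alone, and without that library the log2 change was -0.33. Aox1, aldehyde oxidase, was at 0.113 to 0.864 CPM in CPB and 0.845, 6.38, 0.735 and 0.667 in CPB+Nitrite (adjusted p = 0.162), high in CPB+Nitrite 2 alone.

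Few genes lay outside both other groups. In 43 genes (0.293% of those tested) every CPB+Nitrite library was above all 8 sham and CPB libraries, and in 22 (0.15%) every one was below them. Of these, 30 and 16 had a symbol and a mean of at least 5 CPM. If the labels had no bearing on the values, shares of about this size would be expected. The counts are therefore a description and no support for genes particular to nitrite. The counts moved with the libraries included, to 187 and 194 without CPB+Nitrite 3, 160 and 61 without CPB+Nitrite 1, and 93 and 58 without sham 1. Those named here, other than Rgs2, Nos3, Nr4a1 and Egfl7, were chosen after their values were seen. Rgs2 (chr13:55798829-55802385), which limits Gq-coupled receptor signalling in vessels, was at 6.64, 8.58, 6.06 and 7.17 CPM in CPB 1 to 4 and 27.3, 29.8, 16.9 and 20.5 in CPB+Nitrite 1 to 4 (log2 change 1.73, standard error 0.27, adjusted p = 0.0556), with sham at 6.12 to 14.8. Apold1, an endothelial early-response gene, was at 13.2, 14.2, 8.497 and 7.64 CPM in CPB 1 to 4 and 17.5, 134, 39.3 and 60.9 in CPB+Nitrite 1 to 4 (log2 change 2.53, standard error 0.55, adjusted p = 0.0556), with sham at 4.18 to 12.3. S1pr1, the endothelial receptor for sphingosine 1-phosphate, was at 12.4 to 18.7 CPM in CPB and 21.2, 36.6, 27.5 and 37.1 in CPB+Nitrite (log2 change 1.02, standard error 0.25, adjusted p = 0.0576). Egfl7, secreted by endothelium, was at 7.10 to 17.3 CPM in CPB and 22.4, 58.8, 22.5 and 35.3 in CPB+Nitrite (log2 change 1.51, standard error 0.37, adjusted p = 0.0576). Dio2, which activates thyroid hormone, was at 3.16 to 3.91 CPM in CPB and 12.6, 10.04, 7.005 and 5.20 in CPB+Nitrite (log2 change 1.31, standard error 0.43, adjusted p = 0.0795). The lower genes had smaller differences: Thumpd3, a tRNA methyltransferase, was at 30.6 to 38.8 CPM in CPB and 24.8, 22.4, 22.5 and 23.9 in CPB+Nitrite (log2 change -0.56, standard error 0.13, adjusted p = 0.0556). Ctcf, which organises chromatin loops, was at 59.2 to 72.3 CPM in CPB and 53.1, 53.8, 55.4 and 48.7 in CPB+Nitrite (log2 change -0.28, standard error 0.11, adjusted p = 0.124).

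**Figure D5:**
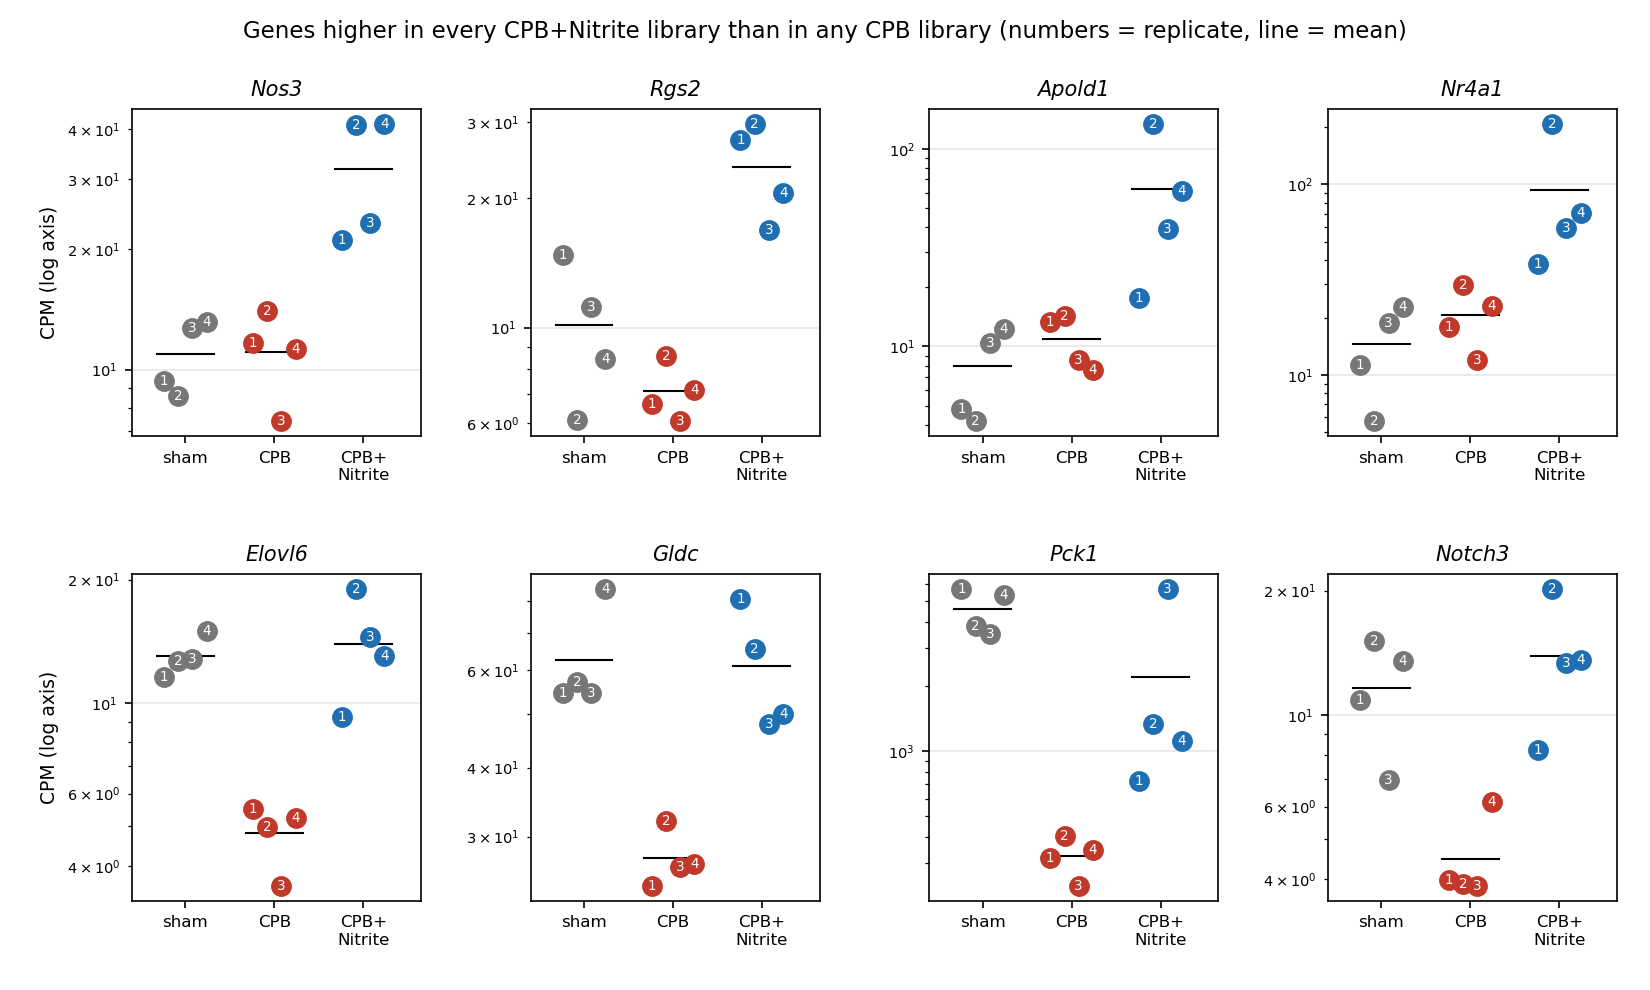
CPM in each library (vertical axes, log scale) for 8 genes whose 4 CPB+Nitrite libraries were all above the 4 CPB libraries; numbers are replicates and lines are group means. In the upper row the nitrite libraries also lie above all sham libraries (Nos3 from 21.2 CPM), and in the lower row the nitrite range overlaps the sham range (Elovl6 from 9.25 CPM).

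Immediate-early genes stood above the CPB libraries as a list in CPB+Nitrite 4 alone. The list level was 0.42, 0.13, -0.22 and 1.43 in CPB+Nitrite 1 to 4 beside -0.23 to 0.48 in CPB. Of 24 tested, 18 had a log2 change above 0 (median 0.52, or 0.18 without CPB+Nitrite 4). At an unadjusted p under 0.05 there were 5 higher, beside 17.3% of all genes, and in 3 every nitrite library was above every CPB library, beside 6.44%. Nr4a1, an orphan nuclear receptor, was at 17.9, 29.5, 11.95 and 23.0 CPM in CPB 1 to 4 and 38.3, 208, 58.8 and 71.0 in CPB+Nitrite 1 to 4 (log2 change 2.191, standard error 0.54, adjusted p = 0.0576), with all nitrite libraries above sham as well (5.71 to 22.7). Egr1 was at 37.9, 72.6, 22.1 and 28.9 CPM in CPB 1 to 4 and 113, 277, 85.5 and 336 in CPB+Nitrite 1 to 4 (log2 change 2.33, standard error 0.75, adjusted p = 0.0794). Its sham libraries, at 3.82 to 94.0 CPM, overlapped both groups. Klf2, a shear-responsive endothelial transcription factor, was at 2.95 to 15.98 CPM in CPB and 18.8, 59.4, 22.8 and 31.2 in CPB+Nitrite (log2 change 1.96, standard error 0.48, adjusted p = 0.0576). Arc, an activity-induced gene outside this list, was at 2.38 to 5.18 CPM in CPB and 5.41, 31.1, 11.8 and 57.9 in CPB+Nitrite (log2 change 2.84, standard error 0.58, adjusted p = 0.0556).

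Lipid synthesis genes were higher with nitrite. Of 18 tested, 16 had a log2 change above 0 (median 0.59, or 0.39 without CPB+Nitrite 2), and in 4 every nitrite library was above every CPB library, beside 6.44% of all genes. Besides Elovl6, these were Scd2, Fads2 and Acaca. Scd2, a stearoyl-CoA desaturase, was at 3.95, 4.32, 3.29 and 2.75 CPM in CPB 1 to 4 and 8.66, 105, 22.5 and 23.4 in CPB+Nitrite 1 to 4 (log2 change 3.48, standard error 0.61, adjusted p = 0.0556), or a log2 change of 2.34 without CPB+Nitrite 2. Fads2, which desaturates polyunsaturated fatty acids, was at 16.1 to 23.8 CPM in CPB and 27.2, 38.5, 31.4 and 26.9 in CPB+Nitrite (log2 change 0.74, standard error 0.16, adjusted p = 0.0556). Acaca, the acetyl-CoA carboxylase of lipid synthesis, was at 13.9 to 17.7 CPM in CPB and 28.0, 27.5, 23.8 and 19.4 in CPB+Nitrite (log2 change 0.63, standard error 0.18, adjusted p = 0.0643). Adipocyte markers, whose part was not tested, were at list levels of 0.95, -0.05, -0.33 and -0.58 in CPB 1 to 4 and 2.13, 2.76, 0.08 and 0.44 in CPB+Nitrite 1 to 4.

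Pck1 (chr3:161930256-161936191), the rate-limiting enzyme of gluconeogenesis in the proximal tubule, was at 318, 404, 235 and 346 CPM in CPB 1 to 4 and 724, 1339, 5691 and 1115 in CPB+Nitrite 1 to 4 (log2 change 2.77, standard error 0.55, adjusted p = 0.0556). All nitrite libraries were above the CPB libraries, and CPB+Nitrite 3 alone reached the sham range of 3493 to 5699 CPM. Of 26 fatty acid oxidation genes 22 had a log2 change above 0 (median 0.41), 11 at an unadjusted p under 0.05 beside 17.3% of all genes. The thiolases Acaa1a and Acaa2 had log2 changes of 0.51 (adjusted p = 0.0736) and 0.53 (adjusted p = 0.088) without overlap. Of 20 citric acid cycle and gluconeogenesis genes 17 had a log2 change above 0 with a median of 0.11 (from 0.049 without CPB+Nitrite 3 to 0.19 without CPB+Nitrite 4 when 1 library was left out), among them Idh2 (0.37, adjusted p = 0.159). Of 24 nuclear-encoded respiratory chain subunits 20 did, with a median of 0.17 (from 0.0924 without CPB+Nitrite 2 to 0.27 without CPB+Nitrite 4), and in none did the groups separate. Targets of hypoxia-inducible factor split 10 above and 9 below 0. Pdk1, which restrains pyruvate oxidation, was at 2.38 to 3.95 CPM in CPB and 6.59, 9.31, 5.88 and 6.58 in CPB+Nitrite (log2 change 1.13, standard error 0.24, adjusted p = 0.0556).

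Markers of several kidney cell types were higher in the nitrite libraries, and in whole tissue more cells of a type cannot be told apart from more RNA per cell. Among the cell type lists whose levels did not overlap between the groups, the largest difference was that of fibroblasts, pericytes and smooth muscle, at 1.36, 1.60, 1.05 and 1.07 in CPB+Nitrite 1 to 4 beside -0.39 to 0.50 in CPB and 0.23 to 1.99 in sham. Of its 17 markers 16 had a log2 change above 0 (median 1.47), and in 9 the groups did not overlap, beside 6.44% of all genes. Sham 1 was the highest library for this list (1.99) and for the adipocyte (4.08) and urothelial lists (3.41). Those lists were at 2.13 and 3.26 in CPB+Nitrite 1 and 2.76 and 1.84 in CPB+Nitrite 2. In CPB 1 they were at 0.95 and 1.39, with the fibroblast list at -0.20. Whether the piece of kidney sampled had a part in these values was not tested. Acta2, smooth muscle actin, was at 8.10, 5.88, 3.06 and 11.5 CPM in CPB 1 to 4 and 54.2, 25.9, 33.1 and 28.2 in CPB+Nitrite 1 to 4 (log2 change 2.31, standard error 0.64, adjusted p = 0.0627). Sham 1 was above all other libraries, at 118 CPM, and the other sham libraries were at 14.8 to 21.1. Tagln, another smooth muscle marker, Mcam and the pericyte receptor Notch3 had log2 changes of 1.55 (adjusted p = 0.0602), 1.26 (adjusted p = 0.0576) and 1.64 (adjusted p = 0.0556), each without overlap.

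Endothelial markers were highest in CPB+Nitrite 2. Of 20 tested, 19 had a log2 change above 0, with a median of 1.12, or 0.52 without CPB+Nitrite 2. Tek, the angiopoietin receptor, was at 4.86, 4.91, 2.66 and 2.34 CPM in CPB 1 to 4 and 5.16, 129, 13.1 and 11.3 in CPB+Nitrite 1 to 4 (log2 change 3.41, standard error 0.89, adjusted p = 0.0608). Its log2 change was 1.40 without CPB+Nitrite 2. Ptprb, the phosphatase of endothelial junctions, was at 22.7 to 42.3 CPM in CPB and 54.6, 208, 88.6 and 73.6 in CPB+Nitrite (log2 change 1.65, standard error 0.42, adjusted p = 0.0584). Sox17, an arterial transcription factor, was at 4.27 to 5.45 CPM in CPB and 6.001, 16.2, 11.3 and 15.3 in CPB+Nitrite (log2 change 1.36, standard error 0.29, adjusted p = 0.0556). The ligand Angpt2 was at 5.32 to 7.29 CPM in CPB and 8.71, 71.2, 11.4 and 11.3 in CPB+Nitrite (log2 change 2.03, standard error 0.64, adjusted p = 0.0754), with CPB+Nitrite 2 far above the others. The matrix list (20 of 25 above 0, median 0.54, or 0.31 without CPB+Nitrite 2) held Sparc, Col5a1 and Mmp2, with log2 changes of 1.098, 2.60 and 1.54 (adjusted p = 0.0693, 0.0736 and 0.0893). That of Col5a1 was 0.79 without CPB+Nitrite 2.

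Podocyte markers had a log2 change above 0 in 20 of 21 (median 0.75), and in 7 every nitrite library was above every CPB library, beside 6.44% of all genes. In 1 member, Cd2ap, an adaptor of the slit diaphragm that other cells also make, every nitrite library was below (log2 change -0.54, adjusted p = 0.127). Foxd1 was at 2.96, 3.13, 2.27 and 2.61 CPM in CPB 1 to 4 and 6.30, 13.7, 5.34 and 10.2 in CPB+Nitrite 1 to 4 (log2 change 1.69, standard error 0.34, adjusted p = 0.0556). The slit and foot process genes Clic5 and Plce1 and the transcription factor Lmx1b had log2 changes of 1.19 (adjusted p = 0.0584), 0.86 (adjusted p = 0.063) and 0.97 (adjusted p = 0.0611). Every nitrite library was above every CPB library for each of these 4 genes.

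Collecting duct markers had a log2 change above 0 in 20 of 23 (median 0.63), 6 without overlap, beside 6.44% of all genes. Aqp2, the vasopressin-regulated water channel, was at 494, 308, 395 and 565 CPM in CPB 1 to 4 and 714, 2758, 856 and 739.8 in CPB+Nitrite 1 to 4 (log2 change 1.52, standard error 0.41, adjusted p = 0.0611). CPB+Nitrite 1, 3 and 4 were within the sham range of 661 to 989 CPM, and CPB+Nitrite 2 was above it. Avpr2, the vasopressin receptor, was at 2.38 to 4.78 CPM in CPB and 5.58, 63.4, 12.3 and 11.8 in CPB+Nitrite (log2 change 2.69, standard error 0.62, adjusted p = 0.0556), or a log2 change of 1.45 without CPB+Nitrite 2. Aqp3, the basolateral water channel, had a log2 change of 1.70 (adjusted p = 0.0563).

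Thick ascending limb and distal tubule markers differed among themselves. Their list level was 0.07, -0.57, 0.82 and 0.21 in CPB+Nitrite 1 to 4 beside -0.10 to 0.25 in CPB, so CPB+Nitrite 2 was below the CPB libraries and CPB+Nitrite 3 above them. Umod, uromodulin of the thick ascending limb, was at 4835, 4746, 3926 and 6372 CPM in CPB 1 to 4 and 4344, 299, 6502 and 3759 in CPB+Nitrite 1 to 4 (log2 change -0.42, standard error 0.57, adjusted p = 0.64). CPB+Nitrite 2 was the lowest of the 12 libraries for Umod, and the summed markers of this segment and the distal tubule ran from 2808 to 13252 CPM in CPB+Nitrite beside 7877 to 12454 in CPB. Kcnj10, a basolateral potassium channel of the distal tubule, was at 4.98 to 5.36 CPM in CPB and 7.56, 11.03, 49.9 and 8.40 in CPB+Nitrite (log2 change 1.90, standard error 0.52, adjusted p = 0.0627), and CPB+Nitrite 3 alone came near the sham range of 51.2 to 91.7. Stk39, a kinase that activates sodium-chloride cotransporters, was at 36.2 to 41.0 CPM in CPB and 51.0, 63.0, 95.4 and 63.1 in CPB+Nitrite (log2 change 0.82, standard error 0.18, adjusted p = 0.0556). Ptger3, a prostaglandin E2 receptor, was lower without overlap (198 to 234 CPM in CPB and 172, 18.0, 144 and 147 in CPB+Nitrite, adjusted p = 0.235).

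Proximal tubule markers lay on both sides of 0. Slc34a1, the apical phosphate transporter, was at 733, 1062, 758 and 1149.9 CPM in CPB 1 to 4 and 1179, 980.2, 1017 and 1008 in CPB+Nitrite 1 to 4 (log2 change 0.18, standard error 0.18, adjusted p = 0.529), and every one of these libraries was below the sham range of 1284 to 1819 CPM. Of 27 markers 16 had a log2 change above 0 with a median of 0.14, ranging from -0.0725 without CPB+Nitrite 1 to 0.19 without CPB 2 when 1 library was left out. The groups did not overlap for 1 of the 27, which was higher with nitrite, beside 6.44% of all genes. This was the organic anion transporter Slc22a6, at 283 to 363 CPM in CPB and 394, 494, 407 and 386 in CPB+Nitrite (log2 change 0.44, standard error 0.16, adjusted p = 0.106).

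Macrophage markers had a log2 change above 0 in 13 of 16 (median 0.66), 7 without overlap, beside 6.44% of all genes. The list level of 0.54 to 0.76 was close across the 4 nitrite libraries and above that of every CPB library (-0.23 to 0.24). Cx3cr1, the fractalkine receptor of resident macrophages, was at 0.237, 0.486, 0.453 and 0.268 CPM in CPB and 0.676, 1.43, 5.39 and 3.07 in CPB+Nitrite (log2 change 2.85, standard error 0.65, adjusted p = 0.0556). Mrc1, the mannose receptor, was at 0.593, 0.486, 0.453 and 0.335 CPM in CPB and 1.183, 2.86, 3.33 and 0.978 in CPB+Nitrite (log2 change 2.13, standard error 0.53, adjusted p = 0.0576). C1qc, a complement chain made by macrophages, was at 14.6, 18.8, 10.4 and 11.4 CPM in CPB and 23.6, 24.8, 26.5 and 22.3 in CPB+Nitrite (log2 change 0.82, standard error 0.29, adjusted p = 0.0939). The 4 nitrite values of C1qc were close together and overlapped the sham range of 9.65 to 29.8. The lysozyme gene Lyz2 had a log2 change of 0.94 (adjusted p = 0.0796).

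Other leukocyte markers were scarce. The summed neutrophil markers ran from 36.6 to 60.6 CPM in CPB and 26.8 to 51.7 in CPB+Nitrite, with 10 of 15 tested. Much of this sum was Lcn2, which is also a tubular injury marker. The list level, in which each marker counts alike, was 0.48, 0.44, -0.20 and 0.46 in CPB+Nitrite 1 to 4. In CPB it was -0.27 to 0.11. For 1 neutrophil marker the groups did not overlap, and it was higher with nitrite, beside 6.44% of all genes. For T, B and natural killer cells 7 of 16 markers were tested, at summed levels of 12.1 to 19.97 CPM in CPB and 12.7 to 24.6 in CPB+Nitrite. The groups did not overlap for 1 of the 7, which was lower with nitrite, beside 6.27% of all genes. This was Cd8a, the co-receptor of cytotoxic T cells, at 0.948 to 1.42 CPM in CPB and 0.549, 0.513, 0.490 and 0.711 in CPB+Nitrite (log2 change -1.096, standard error 0.38, adjusted p = 0.0891).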

How the data were processed

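RNA was measured in 12 rat kidney libraries, grouped by the treatment label. The extraction reagent was QIAzol, followed by a DNase step and a directional library kit, per the labels' protocols. The submitters' processing notes name bcl2fastq 2.19, cutadapt 1.18, Salmon 1.2.1, R 3.5.1 and the build mRatBN7.2, in no stated order; the step from transcripts to genes is not given in the sources used here. The deposited values were the authors' estimated counts per Ensembl gene, of which 33.1% of the non-zero ones were not whole (tolerance 1e-06). A second deposited table held a scaled signal, the same counts multiplied by 1 factor per library by the authors (largest departure 0.0033 in genes of 100 reads or more). It gave symbols and coordinates, and its factors served as an alternative scaling.

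Counts were rounded, genes kept by filterByExpr with a minimum count of 10 (14664 genes with 99.95% of reads, 14076 with a symbol) and libraries scaled by TMM factors (0.887 to 1.11). Every entry of the table named a gene. The test was edgeR 4.0.16 in R 4.3.3 (glmQLFit, glmQLFTest, no covariates) on all 12 libraries, contrast CPB+Nitrite minus CPB, two-sided, with Benjamini-Hochberg adjustment over all genes tested at 0.05. It had 9 residual degrees of freedom and a common biological coefficient of variation of 0.317; library totals were 16837055 to 25776044 reads. List levels are means of log2 CPM (prior count 2). The procedure was run on simulated counts, drawn independently for each gene with the same spread in every group. These lacked shared differences among the CPB+Nitrite libraries, so that run does not bear on the calls here.

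Named genes are part of those a rule allows: the 12 most positive and 12 most negative log2 changes among genes with a symbol, a mean of at least 5 CPM over both groups and no overlap; the 10 smallest p; up to 4 members per list with the smallest p and no overlap; and a fixed set of genes such as Havcr1 and the nitric oxide synthases. Fgb, Hsph1, Hbb, Hspa1a, Apold1, S1pr1, Dio2, Thumpd3, Ctcf, Cd2ap and Cyp27a1 were added after their values were seen. The members, 42 gene lists and named genes were chosen with earlier results of these data known. Other settings tried were edgeR's RLE factors (median of ratios), scaling by totals, the authors' factors, no filter, a mean of at least 2 CPM, only the 8 compared libraries, a replicate block, DESeq2 1.42.0, limma 3.58.1 voom with sample weights, and leaving out each library. DESeq2 and voom values of list medians, and the counts of genes outside all other libraries, were added after the data were seen. Promoter windows came from RefSeq (GRCr8).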

Additional observations from a re-analysis of the deposited data

Results flagged for a closer look

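A library was marked when its gap to the nearest of the other 3 in its group, divided by the range of the group, was above Dixon's critical value for 4 samples. Chance marks about 1 in 20 groups of independent, normally distributed values. Of 332 groups tested (the named genes and gene lists in CPB and in CPB+Nitrite) 37 were marked, 11.1%. The named genes were partly chosen by their values and vary together, so this share does not measure an excess of outliers.

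CPB+Nitrite 2 stood apart for 18 genes and 1 list. Its levels in CPM were 71.2 for Angpt2, 6.38 for Aox1, 2758 for Aqp2, 63.4 for Avpr2, 77.3 for Col5a1, 37.3 for Creld2, 147 for Cxcl12, 4.03 for Gucy1a1 and 2.64 for Gucy1b1, each far from the other nitrite libraries. They were also 3542 for Hbb, 65.6 for Jam2, 87.5 for Mtarc1, 65.7 for Npr1, 25.2 for Plce1, 105 for Scd2, 129 for Tek, 67.1 for Timp2 and 5.86 for Trim29. Creld2 was low in this library, and the other 17 genes were high. The erythrocyte list was at 1.94 log2 units there, relative to the CPB mean.

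In CPB+Nitrite 1 the CPM were 24.9 for Cyp27a1, 1121 for Fgb, 27.1 for RGD1305184 and 182 for Xdh. In CPB+Nitrite 3 the CPM were 38.4 for Icam1, 49.9 for Kcnj10 and 5691 for Pck1. In CPB+Nitrite 4 the CPM were 16336 for Hspa1b and 2179.7 for Hsph1. The neutrophil list was at -0.20 log2 units in CPB+Nitrite 3.

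Among the CPB libraries, CPB 1 was at 1.98 CPM for Icam2 and at 0.12 log2 units for the fatty acid oxidation list. CPB 3 was at 18.0 CPM for Clic5 and 23.8 for Fads2, and at -0.31 log2 units for the molybdenum enzyme and globin list. CPB 4 was at 6.16 CPM for Notch3, at 0.25 log2 units for the thick ascending limb and distal tubule list and at -0.27 for the neutrophil list.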

How the results depend on the processing

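The count of genes past the threshold was 0 with all libraries under median-of-ratios factors, total counts, the authors' factors, no filter, a mean of at least 2 CPM, the 8 compared libraries alone and the replicate block; DESeq2 gave 2235 and limma voom with sample weights 1. Leaving out 1 library gave 0 to 2816, with 2816 without CPB+Nitrite 1 and 4 without CPB 1 (Manba -0.99, Cyp27a1 -1.58 and 2 genes with no established symbol). Genes whose groups did not overlap numbered 1863 to 3752 when 1 library was left out; with a library fewer on the same genes the requirement is looser. Genes outside all other libraries numbered 45 to 187 (higher) and 24 to 194 (lower) in the same way. Of the named genes, 5 changed sign under some setting, none past the threshold in the fit of all libraries. The log2 change of Il1b was -0.00407 with median-of-ratios factors, -0.00322 without the filter, -0.10 with the replicate block, -0.00728 with DESeq2 and -0.0161 with voom. That of Hbb was -1.16 with the replicate block and -1.88 with voom. Leaving out 1 library gave ranges of -0.49 to 0.28 for Il1b, -2.51 to 0.72 for Hbb, -0.76 to 0.46 for Atf3, -0.33 to 0.34 for Xdh and -0.84 to 0.13 for Cxcl1. Deviations of the same-numbered CPB and CPB+Nitrite libraries had correlations of -0.046, -0.035, 0.036 and 0.095 over all tested genes. In all 4 pairs this was below the best correlation with another number, 0.0962 to 0.158. The best is the highest over the other numbers and tends to exceed a single value, so this comparison cannot exclude pairs. The same-number correlations were low, and the numbers were not taken as pairs. With the replicate block the count of calls was 0, as without it. Depth limits genes under about 1 CPM, such as Trim29, more than the rest. The cause of these differences between settings was not tested.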

Other observations

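Of 13 glucocorticoid-responsive genes 12 had a log2 change above 0 (median 0.47, ranging from 0.31 without CPB+Nitrite 3 to 0.56 without CPB+Nitrite 4 when 1 library was left out). Their list level was 0.35 to 0.63 (log2 units relative to the CPB mean) in the 4 nitrite libraries beside -0.03 to 0.06 in CPB, so the groups did not overlap, and -0.20 to 0.36 in sham. Cdkn1c, a cell-cycle inhibitor, was at 16.2 to 28.1 CPM in CPB and 41.4, 131, 36.1 and 64.2 in CPB+Nitrite 1 to 4 (log2 change 1.52, standard error 0.39, adjusted p = 0.0584). Zbtb16, a transcription factor induced by glucocorticoids, was at 3.88 to 8.85 CPM in CPB and 9.89, 26.3, 19.0 and 12.2 in CPB+Nitrite (log2 change 1.28, standard error 0.36, adjusted p = 0.0637). Of 7 metallothioneins and zinc handling genes 5 had a log2 change below 0 (median -0.28, ranging from -0.56 without CPB+Nitrite 1 to -0.0752 without CPB+Nitrite 2). Of these, the importer Slc39a10 was at 69.2 to 80.4 CPM in CPB and 60.6, 12.3, 35.2 and 41.2 in CPB+Nitrite (log2 change -1.02, standard error 0.34, adjusted p = 0.0849), and the metal-sensing transcription factor Mtf1 at 29.1 to 40.6 and 28.9, 16.6, 27.2 and 26.5 (log2 change -0.47, standard error 0.18, adjusted p = 0.108).

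The lists below are given with their median log2 change and its range when 1 library was left out. Lysosomal enzymes had 17 of 23 members above 0 (median 0.13, from 0.0911 without CPB 2 to 0.21 without CPB+Nitrite 3). Clock genes had 9 of 17 (median 0.0023, from -0.18 without CPB+Nitrite 4 to 0.16 without CPB 4). Cell-cycle genes had 15 of 25 (median 0.34, from 0.19 without CPB+Nitrite 2 to 0.35 without CPB 2). Glycine and serine metabolism had 10 of 16 (median 0.29, from 0.12 without CPB+Nitrite 2 to 0.45 without CPB+Nitrite 4). Of the VEGF, angiopoietin and vasoactive genes 19 of 25 were above 0 (median 0.60, or 0.21 without CPB+Nitrite 2). The mitochondrially encoded transcripts had a median of 0.06 (from -0.0233 without CPB+Nitrite 1 to 0.14 without CPB+Nitrite 2), with list levels of 0.38, -0.30, 0.10 and 0.05 in CPB+Nitrite 1 to 4. Urothelial markers, which mark the lining of the renal pelvis (7 of 9 above 0, median 3.10, or 1.31 without CPB+Nitrite 1), had list levels of 3.26, 1.84, 0.95 and 0.49 in CPB+Nitrite 1 to 4. CPB libraries ran from -1.12 to 1.39 and sham libraries from -1.81 to 3.41. Of 12 adrenal markers 3 were tested, with 1 above 0 (median -0.23, from -0.41 without CPB 1 to -0.0113 without CPB+Nitrite 1). Adipocyte markers were above 0 in 10 of 11 (median 1.93, from 1.11 without CPB+Nitrite 2 to 2.43 without CPB 1). Neutrophil markers had 8 of 10 (median 0.25, from 0.19 without CPB+Nitrite 2 to 0.39 without CPB 3), and T, B and natural killer cell markers 3 of 7 (median -0.63, from -0.68 without CPB 4 to -0.27 without CPB 2). Erythrocyte markers had 6 of 6 (median 0.16, from -1.57 without CPB+Nitrite 2 to 0.74 without CPB 4). Thick ascending limb and distal tubule markers had 14 of 22 (median 0.20, from -0.00188 without CPB+Nitrite 3 to 0.34 without CPB+Nitrite 2).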
